A study of Prunus persica and Prunus armeniaca with 129 samples.

Results

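The 8 libraries described here came from floral buds of 2 high chill peach genotypes, A318 and A323, sampled at 1000 chill hours (CH) with 4 libraries each. They were chosen by their labels as every peach library marked 1000 CH, out of 69 peach libraries and 129 in the whole series, which also holds apricot. Both genotypes are members of an F2 family from the low chilling requirement cultivar "Fla.92-2C" and the high chilling requirement cultivar "Contender", grown in South Carolina, and carry no transgene or treatment. Each genotype is 1 line multiplied as clonal trees, and buds of 4 clones were collected at each chill hour count. The chilling requirement recorded for A318 lies below the 1000 CH at sampling and that for A323 above it. By chill hours alone, A318 had therefore met its requirement and A323 had not, but the dormancy state of the buds themselves was not assayed. The low chill genotypes had already flowered by then and have no library at this time. With 1 genotype on each side, dormancy state and genotype cannot be told apart, and the p-values measure only the spread between clonal trees.

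Floral buds of peach form in summer and pass the winter in endodormancy, in which the bud cannot grow even in warmth, until enough chilling has accumulated. They then enter ecodormancy, in which only cold weather holds growth back, and the anther inside the bud goes on to meiosis and pollen formation. The dormancy-associated MADS-box (DAM) genes are a tandem cluster of transcription factor genes related to SVP of Arabidopsis, and in peach DAM5 and DAM6 are known to decline as chilling accumulates. These measurements come from whole buds, so fewer cells of a type and less RNA per cell cannot be told apart.

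Depth differed widely among the 8 libraries. The A318 libraries held 529219, 1279823, 1509999 and 8316974 counts in replicates 1 to 4, and the A323 libraries held 6188643, 2209680, 5820442 and 1485248. The median over all peach libraries was 9692141, and 5 of the 8 libraries, 3 of A318 and 2 of A323, fell below that median divided by 4, whereas only 9 of the 69 peach libraries did so in all. At 3 counts, the limit below which a level is read as a floor, a library of this set resolved between 0.276 CPM (counts relative to the normalized library total) in A318 replicate 4 and 5.61 CPM in A318 replicate 1. Of the 22574 genes tested, 6113 (27.1%) averaged under 10 counts in these 8 libraries. Floors and counting intervals cover counting error only.

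A318 replicate 4, the deepest of the 8 libraries, also stood apart in what it contained. Thinned to 494799 counts, the smallest peach total, it showed 20937 genes, whereas the other 7 libraries showed 16268 to 17946 and the other 68 peach libraries at most 18921. Genes with a median under 0.1 CPM in the remaining peach libraries took 0.642% of its counts and 0.0476% to 0.196% in the other 7. There were 510 tested genes with no count in any A323 library against 31 with none in A318. For several results the values without this library are given too.

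The labels were checked against 19 genes that passed the test between A318 and A323 in one direction at 3 or 4 of the other 4 times, 10 higher and 9 lower in A318. The 10 higher genes summed to 95.3, 93.9, 110.8 and 94.5 CPM in the A318 libraries at 1000 CH and to 18.1, 36.8, 24.7 and 16.3 CPM in those of A323. The 9 lower genes summed to 33.6, 31, 26.6 and 18.7 CPM in A318 and to 93.5, 90.9, 100.4 and 75.3 CPM in A323, so that all 8 libraries fell on the side of their label. The A318 libraries at 1000 CH nevertheless lay above the 14 A318 libraries of the other times, which ranged from 1.34 to 11.2 CPM over the same 9 genes. Prupe.3G153800 was one of them, with 5.61, 7.35, 3.72 and 0.367 CPM in A318 at 1000 CH, 12, 17, 17.8 and 11.4 CPM in A323, and means of 0.0968 to 0.245 CPM in A318 at the other times. The 10 higher genes, at 93.9 to 110.8 CPM, reached below the 103.7 to 179.7 CPM of the A318 libraries of other times. Both sums were thus shifted towards A323. The 19 genes were chosen for their gap in the libraries of the other times, so a wider gap there is partly built in. In A318 replicate 1 the sum of the lower genes rested on 18 counts. Whether RNA of the 2 genotypes was mixed in the 4 A318 libraries of 1000 CH was not tested. The part of this shift in the results was not tested either. One library outside this set, A323 at 0 CH replicate 4, had 5.16 CPM over the lower and 153.2 CPM over the higher genes and so carried the pattern of A318 against its label. Without it, the test against no change at 1000 CH had 197 higher and 121 lower genes in place of 125 and 102.

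**Figure D1:**
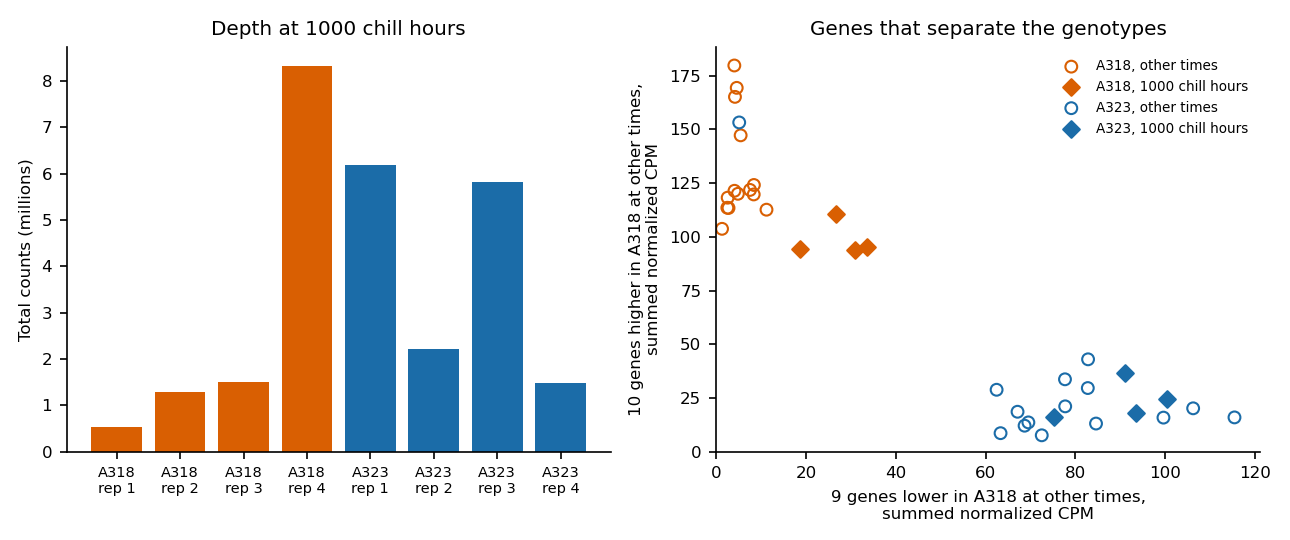
Left, total counts of each A318 (orange) and A323 (blue) library at 1000 CH; bars start at 0. Right, the summed normalized CPM of the 9 genes lower in A318 at other times (x axis) against that of the 10 genes higher in A318 (y axis), 1 point for each A318 and A323 library, with filled diamonds for 1000 CH; the 4 filled orange diamonds lie between 18.7 and 33.6 on the x axis, to the right of all open orange circles.

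Floral identity genes that define the tissue were present in all 8 libraries. APETALA3 (AP3), a petal and stamen identity gene, measured 117 to 154.5 CPM in A318 and 132 to 184 CPM in A323, and LEAFY (LFY), a regulator of floral meristem identity, 26.7 to 44.1 CPM in A318 and 49.3 to 78.9 CPM in A323. AGAMOUS (AG) measured 20.4 to 27.8 CPM in A318 and 11.3 to 26.9 CPM in A323. Photosynthesis genes, which would come with green scales or leaf tissue, summed to 68.7 to 118 CPM over 4 genes in A318 and 78.6 to 131 CPM in A323, and 0 of the 4 passed the test.

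In a principal component analysis (PCA) of the 500 most variable genes over all peach libraries, the 2 genotypes were separated on PC1, which held 43.4% of the variance. The A318 libraries had PC1 scores of 18.8, 10.6, 16.1 and 11.5 and the A323 libraries of 1.32, 5.50, 2.19 and -2.32, without overlap. The difference between the means, 14.2 ± 3.88 for A318 and 1.67 ± 3.21 for A323 (SD, n = 4), came to 14.2% of the PC1 range of all libraries. At 600 CH the means had been -14.9 in A318 and -26.9 in A323, and the low chill genotypes A209 and A340, also at 600 CH, stood at 45.6 and 46.3. On this axis the A318 buds at 1000 CH therefore lay between those of A323 and the low chill buds at 600 CH. PC1 scores did not simply rise with stage, however. At Pre-bloom the means were 21.6 in A318 and 7.19 in A323, so A323 at Pre-bloom lay below A318 at 1000 CH. Both low chill genotypes stood lower at Pre-bloom than at 600 CH. The A318 mean was above that of A323 at every other time too, so its higher position was not particular to 1000 CH. Depth also differed between the A318 and A323 libraries of 1000 CH, and its part in their PC1 difference was not tested.

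**Figure D2:**
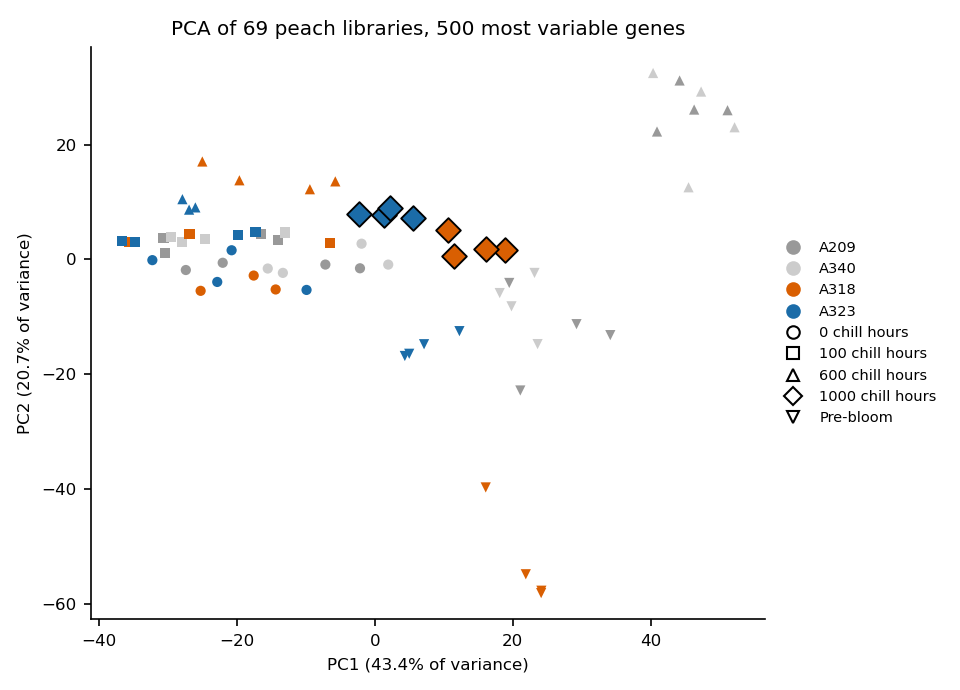
PC1 (43.4% of variance) against PC2 (20.7%) of the regularized log counts of the 500 most variable genes, 1 point for each of the 69 peach libraries, with genotypes and times as in the legend. The A318 libraries at 1000 CH have PC1 scores of 10.6 to 18.8 and lie to the right of the A323 libraries of that time, at -2.32 to 5.50.

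The comparison of A318 with A323 at 1000 CH asks which transcripts differed between buds that had and had not met their recorded chilling requirement at the same chill hours. Differentially expressed genes (DEGs) were called in edgeR by a test against a 2-fold change, adjusted over all 22574 genes, and 0 genes passed at an adjusted p of 0.05. The lowest edgeR adjusted p was 0.156, and 1225 genes had an unadjusted p under 0.05 in this test; DESeq2 also called 0. Fitted alone, the 8 libraries gave 49 DEGs, 49 higher and 0 lower in A318, and thinned to the smallest total they gave 33, 32 higher and 1 lower. Tested against no change, 227 genes passed, 125 higher and 102 lower in A318, which is 1.01% of the genes tested (0.554% higher and 0.452% lower). Of these, 174 differed by more than 2-fold in their estimate and 179 did not overlap between the 4 and 4 libraries, against 6.30% of all genes. With DESeq2 size factors in place of TMM, the split among 224 genes was 158 higher and 66 lower. It was 324 and 45 for the 8 libraries alone, 204 and 34 after thinning, and 437 and 146 with DESeq2, so the near-even split did not hold under these settings. The median log2 fold change of all genes was 0.08, and 0.15 with those size factors.

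Single libraries decided much of the count of 227. It was 104, 216, 61 and 109 without A318 replicates 1, 2, 3 and 4, and 27, 116, 249 and 71 without A323 replicates 1, 2, 3 and 4. Without A318 replicate 4, 70 of the 227 genes still passed, and all 227 kept their sign when any 1 library was left out. Omitting the shallow peach libraries, which leaves replicate 4 as the only A318 library, 225 of the 227 kept their sign. Only CAL and Prupe.8G195800, among the 33 named genes past the test, also passed with every library left out in turn. Over all 18 alternative settings each of these genes kept its sign, but each lost its call in 2. Of the 227 genes, 40 (16 higher and 24 lower) had a name or description in the study.

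The genes lower in A318 included regulators of flowering and of hormone and stress responses. CAULIFLOWER (CAL, Prupe.3G307800, chromosome 3), a MADS-box transcription factor gene of floral meristem identity close to APETALA1, measured 112, 128, 142 and 156 CPM in the A318 libraries and 422.8, 332, 214 and 344 CPM in those of A323. The groups did not overlap, and the lowest A323 library, replicate 3, was above the highest of A318. The means were 135 ± 18.7 in A318 and 328 ± 86.2 in A323 (SD, n = 4), a log2 fold change of -1.28 (SE 0.23) and an edgeR adjusted p of 0.00288. With 1 library left out, the adjusted p reached at most 0.0402. SERRATE (SE, Prupe.6G153800, chromosome 6), a zinc-finger protein of microRNA processing in Arabidopsis, measured 37.4, 62.1, 45.8 and 36 CPM in A318 and 77.3, 87.0, 68.5 and 86.2 CPM in A323. All A323 libraries were above all of A318, with a log2 fold change of -0.81 (SE 0.18) and an edgeR adjusted p of 0.0152, which became 0.0518, 0.0702 and 0.0504 without A318 replicate 1, A318 replicate 4 or A323 replicate 1.

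HAI2 (Prupe.2G312300, chromosome 2) encodes a protein phosphatase 2C that is induced by abscisic acid in Arabidopsis and acts as a negative regulator of its signalling. It measured 35.51, 30.2, 45.2 and 23.05 CPM in A318 and 132, 67.2, 25.9 and 111.1 CPM in A323, where replicate 3 lay within the A318 range. Its log2 fold change was -1.35 (SE 0.36, edgeR adjusted p 0.0443), and this call held without A323 replicate 3 (adjusted p 0.00717) but not without any 1 of the other 7 libraries (up to 0.222, without A323 replicate 1). HSP70T-2 (Prupe.1G012200, chromosome 1), a heat shock protein of the HSP70 family, measured 24.3, 13.1, 24.8 and 9 CPM in A318 and 73.5, 51.4, 8.89 and 63.9 CPM in A323. Here too A323 replicate 3 was the low library of its group, and the log2 fold change of -1.59 (SE 0.39) and an edgeR adjusted p of 0.0304 lost its call without A318 replicate 2 or 4 or without A323 replicate 1, 2 or 4 (adjusted p up to 0.155, without A323 replicate 1). At Pre-bloom, sampled on an earlier day in A318 than in A323, the same gene was higher in A318. It averaged 117 ± 60.5 CPM against 33.8 ± 8.70 CPM (SD, n = 4, log2 fold change 1.79, edgeR adjusted p 0.000174).

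A pair of genes of oxidative metabolism was also lower in A318. MSD1 (Prupe.6G042300, chromosome 6), the mitochondrial manganese superoxide dismutase, measured 24.3, 27.8, 19.8 and 24 CPM in A318 and 75.0, 49.8, 36 and 50.9 CPM in A323, without overlap. Its log2 fold change was -1.15 (SE 0.25, edgeR adjusted p 0.0135), with adjusted p of 0.0582 and 0.114 without A318 replicate 3 or A323 replicate 1. Prupe.8G195800 (chromosome 8), described as a zinc-binding oxidoreductase, measured 295, 310, 368 and 199.9 CPM in A318 and 734.5, 699.8, 390.1 and 674 CPM in A323. The A323 libraries were all above those of A318, replicate 3 only narrowly, and the log2 fold change was -1.09 (SE 0.21), with an edgeR adjusted p of 0.00603 that was at most 0.0476 with 1 library left out. It had also been lower in A318 at 600 CH (-0.90, adjusted p 0.0351) and was higher in A318 at Pre-bloom (0.91, adjusted p 0.00215).

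The other annotated genes lower in A318 without overlap covered transcription, metal handling and RNA processing. GATA16 (Prupe.6G316000), a GATA transcription factor gene, averaged 3.08 ± 1.71 CPM in A318 and 8.48 ± 1.41 CPM in A323 (log2 fold change -1.72, edgeR adjusted p 0.0443). Its A318 levels were near the 3-count floors of replicates 1 to 3, at 5.61, 2.45 and 1.86 CPM. Prupe.6G329100, of a family of heavy metal transport proteins, averaged 214 ± 72.6 and 531 ± 137 CPM (-1.32, adjusted p 0.0388), and MTPA2 (Prupe.2G198700), a vacuolar zinc transporter in Arabidopsis, 27.5 ± 9.74 and 54.4 ± 14.8 CPM (-0.92, adjusted p 0.0177). RSP31 (Prupe.2G193200), an arginine and serine rich splicing factor, averaged 25.6 ± 4.56 CPM in A318 and 49.4 ± 12.5 CPM in A323 (-0.92, adjusted p 0.0277). Prupe.5G050400, with a DUF581 domain of unknown function, averaged 157 ± 25.3 and 331 ± 64.6 CPM (-1.07, adjusted p 0.0135). A gene with a CCT motif (Prupe.2G310900), a homeodomain-like gene (Prupe.3G300500) and a kelch repeat gene (Prupe.1G510200) had log2 fold changes of -0.98, -1.01 and -0.91. Each of these 8 genes lost its call when 1 library or another was left out, 1 library for Prupe.5G050400 (A323 replicate 1, adjusted p 0.0825).

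**Figure D3:**
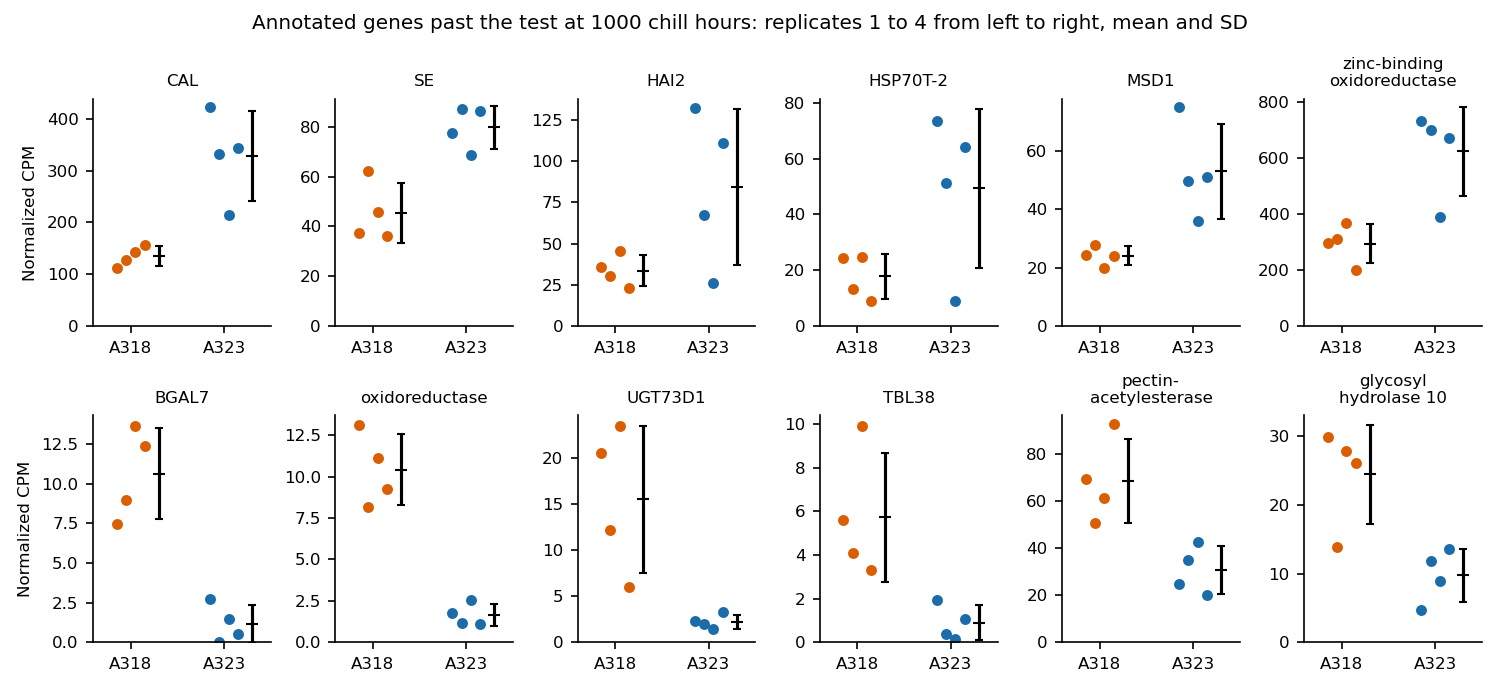
Normalized CPM of 12 annotated genes past the test at 1000 CH, 1 panel each, with the 4 libraries of A318 (orange) and A323 (blue) as points and the mean with its SD beside them; each axis starts at 0. A323 replicate 3, the third blue point, is the lowest A323 library for CAL, SE, HAI2, HSP70T-2, MSD1 and the zinc-binding oxidoreductase.

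The named genes higher in A318 included enzymes of the cell wall and of redox and sugar metabolism. BGAL7 (Prupe.7G194500, chromosome 7), a beta-galactosidase, which in Arabidopsis belongs to a family that trims cell wall sugars, measured 7.47, 8.99, 13.6 and 12.4 CPM in A318 and 2.72, 0, 1.45 and 0.542 CPM in A323. The groups did not overlap, and the log2 fold change was 2.99 (SE 0.75, edgeR adjusted p 0.0335). The levels of BGAL7 in A323 replicates 2 and 4 were below their 3-count floors of 1.19 and 1.63 CPM. Prupe.8G156700 and Prupe.8G195100 (chromosome 8), both described as oxidoreductases, differed in the same direction. The first measured 13.1, 8.17, 11.1 and 9.27 CPM in A318 and 1.75, 1.186, 2.59 and 1.08 CPM in A323 (log2 fold change 2.46, SE 0.60, edgeR adjusted p 0.0301). The second measured 9.34, 11.4, 16.7 and 13.5 CPM in A318 and 3.11, 5.14, 5.49 and 1.63 CPM in A323 (1.72, SE 0.46, adjusted p 0.0449). A323 replicates 2 and 4 for the first gene, and replicate 4 for the second, were at or below the 3-count floor. The calls of all 3 genes were lost without A323 replicate 1, at adjusted p of 0.0628, 0.0997 and 0.154, and without at least 5 others in turn.

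UGT73D1 (Prupe.7G124000), a UDP-glucosyl transferase that in Arabidopsis belongs to a family acting on small molecules, measured 20.6, 12.3, 23.5 and 5.97 CPM in A318 and 2.33, 1.98, 1.45 and 3.25 CPM in A323 (log2 fold change 2.77, SE 0.70, edgeR adjusted p 0.0353). TBL38 (Prupe.4G157400), of a family of cell wall acetylation genes, measured 5.61, 4.08, 9.91 and 3.31 CPM in A318 and 1.94, 0.395, 0.162 and 1.08 CPM in A323 (2.56, SE 0.56, adjusted p 0.0135). These genes too did not overlap between the groups. TBL38 in A323 replicates 2, 3 and 4 was below the 3-count floors of 1.19, 0.485 and 1.63 CPM. A pectin acetylesterase (Prupe.6G303100), an enzyme of pectin modification, averaged 68.4 ± 17.8 CPM in A318 and 30.6 ± 10.1 CPM in A323 (log2 fold change 1.16, edgeR adjusted p 0.0301), and a glycosyl hydrolase of family 10 (Prupe.8G145600) 24.4 ± 7.20 and 9.74 ± 3.89 CPM (1.38, adjusted p 0.0301). A protein kinase gene (Prupe.5G035100) averaged 18.97 ± 5.73 and 6.003 ± 1.301 CPM (1.6, adjusted p 0.0388). The call was lost without A318 replicate 3, among others, for all 5 genes, with adjusted p of 0.121 for UGT73D1, 0.0814 for TBL38, 0.0557 for the pectin acetylesterase, 0.0711 for the glycosyl hydrolase and 0.110 for the kinase.

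For 9 of the 125 higher genes, no A323 library held a count, so that only a bound can be given against 3 counts over the 4 libraries. GER3 (Prupe.7G200200), a germin-like protein of the cell wall, had 36 counts in A318 and 0 in A323, at least 13.2-fold higher. Its levels in A318 were 1.87, 0.817, 10.5 and 1.56 CPM, and the edgeR adjusted p of 0.0130 became 0.0787 without the high library, replicate 3, and 0.0666 without A323 replicate 1. H2AX (Prupe.1G022700), a histone variant that marks DNA damage, had 25 counts in A318 and 0 in A323, at least 9.18-fold higher, with 0, 2.45, 1.86 and 1.74 CPM in A318 (edgeR adjusted p 0.0425). Its call was lost with each of the 8 libraries left out in turn. Prupe.2G128200, which has no description, had 18 counts against 0, at least 6.61-fold higher. These are levels at or near the floor of the shallow libraries.

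Genes without a description were among those with the largest differences in both directions, and some of them also differed at other times. Among those higher in A318, Prupe.2G160800 measured 1.87, 5.72, 11.1 and 1.93 CPM against 0, 0.395, 0 and 0 CPM, a ratio of 51.8 in pooled counts (95% interval 8.85 to 2087 for counting error). It was also higher in A318 at 100 CH, 600 CH and Pre-bloom, with log2 fold changes of 4.96, 5.57 and 6.76. Prupe.1G512100 and Prupe.2G112900, with 1 and 2 counts in A323, had pooled ratios of 46.3 (7.86 to 1870) and 27.5 (7.23 to 234). Among the lower genes, Prupe.3G140100 measured 0, 0, 0.619 and 0.276 CPM in A318 and 3.303, 3.95, 5.66 and 7.59 CPM in A323, a log2 fold change of -4.11 (SE 1.02) and an edgeR adjusted p of 0.0308, and was lower in A318 at every other time as well. Prupe.3G224000 (-2.99), lower in A318 at 100 CH, 600 CH and Pre-bloom too, belongs with it to the 19 genes used above to check the labels. By contrast, Prupe.1G307700 measured 1.87, 3.27, 1.86 and 0.827 CPM in A318 and 16.3, 11.1, 12.1 and 9.21 CPM in A323 (-3.01, SE 0.55, edgeR adjusted p 0.00288), and at 0, 100 and 600 CH its log2 fold changes of -0.30, -0.62 and -0.49 did not pass, whereas at Pre-bloom it was again lower (-1.45, adjusted p 0.0115). Its adjusted p was 0.0507 without A318 replicate 4. In A318 replicates 1 and 3 its level was at or below the 3-count floors of 5.61 and 1.86 CPM. The A318 levels of Prupe.3G140100 were all at or below the floor of their library. Prupe.7G247600 (-2.71) and Prupe.4G243900 (-2.62) passed at 1000 CH and at none of the other 4 times.

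The gene with the lowest adjusted p, Prupe.6G309400, was picked out after its values were seen. It measured 29.9, 20.4, 21.7 and 16.7 CPM in A318 and 197, 166, 14.7 and 378 CPM in A323, so that A323 replicate 3 was below all A318 libraries while the other 3 A323 libraries were far above (log2 fold change -3.16, SE 0.53, edgeR adjusted p 0.00134). Prupe.1G050900, described as an AWPM-19-like protein, a family linked to abscisic acid in cereals, showed the same low library, with 1136, 356, 48.6 and 375 CPM in A323 and 179, 105, 110.2 and 12.4 CPM in A318 (-2.28, adjusted p 0.0360).

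Of the 6 DAM genes, 0 passed the test at 1000 CH, against 1.01% of all genes. DAM6 measured 282, 145, 196 and 51.9 CPM in A318 and 112, 162, 69.6 and 126 CPM in A323. DAM5 measured 129, 70.3, 83.6 and 31.04 CPM in A318 and 47.8, 66.8, 45.1 and 56.4 CPM in A323. For both genes A318 replicate 1 was the highest and A318 replicate 4 the lowest of all 8 libraries. The log2 fold changes were 0.50 for DAM6 (95% interval -0.43 to 1.44, edgeR adjusted p 0.634) and 0.49 for DAM5 (-0.46 to 1.45, adjusted p 0.649). Without the 3 shallow A318 libraries, leaving only replicate 4, both turned negative, to -1.23 and -0.85.

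DAM4 measured 191, 114, 160.4 and 96.1 CPM in A318 and 179, 189, 112 and 146 CPM in A323 (log2 fold change -0.17, 95% interval -0.56 to 0.22, edgeR adjusted p 0.717). DAM3 measured 18.7, 18.8, 24.1 and 16.99 CPM in A318 and 23.9, 29.3, 20.8 and 36.3 CPM in A323 (-0.48, interval -0.96 to -0.0001, adjusted p 0.306). A318 replicate 3 lay above A323 replicates 1 and 3, and the other 3 A318 libraries lay below all of A323. DAM1, at 0 to 7.43 CPM, and DAM2, at 0 to 0.827 CPM, were near the floor of the shallow libraries, and their log2 fold changes of 0.51 and 2.08 had intervals of -0.64 to 1.67 and -1.10 to 5.26. Without A318 replicate 3 the log2 fold change of DAM1 was -0.0071. The DAM genes are tandem copies of related sequence, so how reads were shared among them is uncertain.

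At 600 CH the means of DAM4, DAM5 and DAM6 were higher in A323. There, DAM5 averaged 105 ± 24.2 CPM in A318 (SD, n = 4) and 301 ± 3.04 CPM in A323 (n = 3), DAM6 208.6 ± 30.2 and 532 ± 50.7 CPM, and DAM4 328 ± 32.5 and 671 ± 106 CPM. Of these differences, only that of DAM4 passed the test (log2 fold change -1.03, SE 0.21, edgeR adjusted p 0.00366), whereas those of DAM5 and DAM6 were -1.51 (adjusted p 0.185) and -1.35 (adjusted p 0.297). From 600 to 1000 CH, tested against no change, 2 of the 6 genes fell in A318, DAM3 and DAM4, where 11.7% of all genes fell. Their log2 changes were -1.97 (edgeR adjusted p 1.17e-08) and -1.24 (adjusted p 4.69e-06). In A323, where 8.83% of all genes fell, DAM3, DAM4, DAM5 and DAM6 did so, by 2.03, 2.10, 2.48 and 2.18 on the log2 scale. The log2 changes of DAM5 and DAM6 in A318 were -0.47 and -0.33, with adjusted p of 0.469 and 0.623. The difference between the genotypes did not itself pass a test of change between the 2 times for any of the 6 genes (edgeR adjusted p 0.289 to 0.993). At Pre-bloom, DAM5 and DAM6 averaged 8.26 ± 1.78 and 22.3 ± 3.46 CPM in A318 and 13.4 ± 8.05 and 27.3 ± 22.3 CPM in A323, and DAM4 was lower in A318 (log2 fold change -0.67, adjusted p 0.0219).

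**Figure D4:**
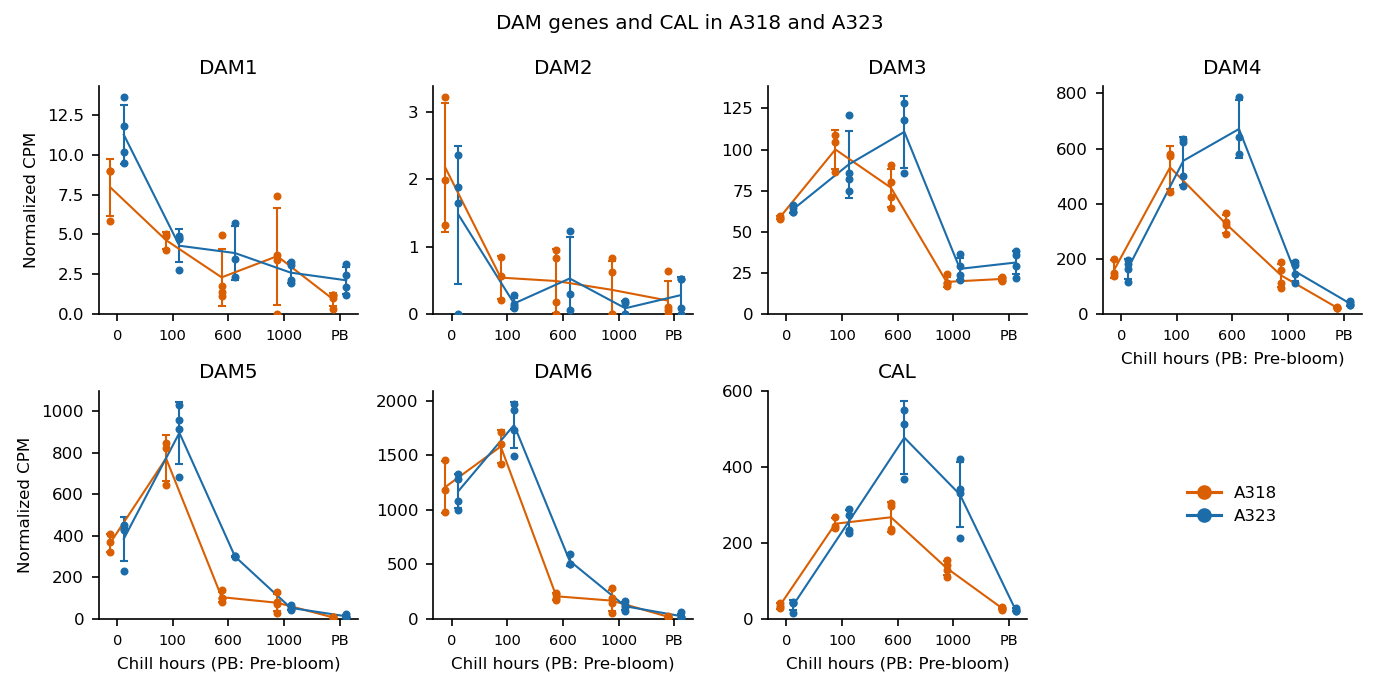
Normalized CPM of the DAM genes and CAL in A318 (orange) and A323 (blue) at 0, 100, 600 and 1000 CH and at Pre-bloom, 1 panel for each gene, with a point for each library and a line through the group means; each axis starts at 0. For DAM4, DAM5 and DAM6 the means of the 2 genotypes are apart at 600 CH (105 against 301 CPM for DAM5) and the libraries overlap at 1000 CH. For CAL they do not overlap at 600 CH or at 1000 CH.

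CAL followed another course. It averaged 251 ± 15.5 CPM in A318 and 257 ± 30.4 CPM in A323 at 100 CH, 268 ± 39.1 and 478 ± 95.7 CPM at 600 CH, and 28.4 ± 3.03 and 24.5 ± 3.80 CPM at Pre-bloom. The difference passed the test at 1000 CH only. At 600 CH its log2 fold change was -0.83 (edgeR adjusted p 0.106), but the libraries did not overlap there either. They measured 231 to 307 CPM in A318 and 370 to 550 CPM in A323. The difference did not pass the test of change between 600 and 1000 CH. Over that span CAL fell by 0.99 in A318 (adjusted p 0.00104), with a value of -0.54 in A323 (adjusted p 0.110). Of the other floral regulators, 0 of 13 passed, but LFY, FT and SVP did not overlap between the groups. With CAL, 28.6% of the list was lower without overlap, against 3% of all genes. LFY measured 42.98, 44.1, 37.2 and 26.7 CPM in A318 and 78.9, 54.95, 71.3 and 49.3 CPM in A323 (log2 fold change -0.80, edgeR adjusted p 0.294). FLOWERING LOCUS T (FT, Prupe.6G364900), the mobile flowering signal, measured 78.5, 56.4, 69.3 and 25.99 CPM in A318 and 96.0, 100.02, 84.4 and 94.3 CPM in A323 (-0.75, adjusted p 0.244). SVP (Prupe.8G069300), the relative of the DAM genes, had -0.47 (adjusted p 0.247). The median over the 14 floral genes was -0.11.

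Anther and pollen genes, which come on after dormancy release, did not pass the test in any list. Of 12 exine and sporopollenin genes, which build the pollen wall, 0 passed and 11 (91.7%, against 55.3% of all genes) had a positive log2 fold change. Their median was 0.56, against 0.08 over all genes. At 600 CH it had been 1.85, against -0.02 over all genes. Of the 12 genes, 0 passed the test of change between 600 and 1000 CH. Spermidine hydroxycinnamoyl transferase (SHT, Prupe.1G079800), an enzyme of the pollen coat, measured 39.2, 28.6, 37.8 and 23.4 CPM in A318 and 8.55, 15.4, 3.23 and 3.25 CPM in A323. Although its groups did not overlap, the log2 fold change of 2.06 (SE 0.83) had an edgeR adjusted p of 0.197. Higher without overlap were 8.33% of the exine list, against 3.3% of all genes. CYP703A2, a fatty acid hydroxylase of sporopollenin synthesis, measured 91.6, 57.2, 63.8 and 19.01 CPM in A318 and 27.4, 30.8, 34.4 and 22.2 CPM in A323, with A318 replicate 4 the lowest of the 8 (0.93, adjusted p 0.597). Over the 12 genes A318 replicate 4 summed to 157 CPM, the other A318 libraries to 339 to 499 CPM and the A323 libraries to 150.1 to 257 CPM.

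Of 7 tapetum and meiosis regulators, 0 passed and the median was 0.89; all but EMS1 and TA1 stayed at 0 to 10.6 CPM. Of the 7 pollen and gamete genes tested, 0 passed and the median was 0.53. At 600 CH the median had been 1.19 for the pollen and gamete genes and 0.14 for the tapetum and meiosis regulators. Of the pollen and gamete genes, 3 (42.9%, against 3.3% of all genes) were higher in A318 at 1000 CH without overlap. Gamete expressed protein 1 (Prupe.1G133700) measured 46.7, 22.9, 25.4 and 11.8 CPM in A318 and 6.995, 10.7, 3.88 and 4.34 CPM in A323 (1.91, edgeR adjusted p 0.261). From 600 to 1000 CH, tested against no change, 6 of the 12 exine genes rose in A318, where 19.3% of all genes did, and 7 in A323, where 8.56% did.

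**Figure D5:**
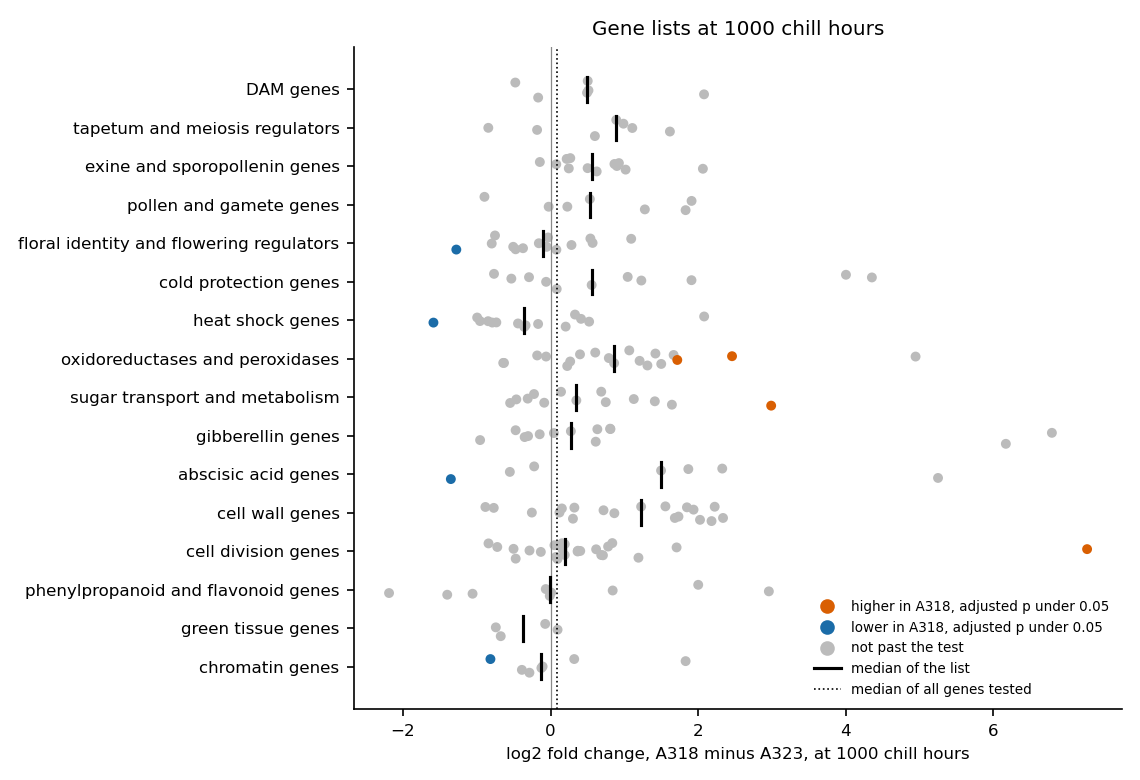
Log2 fold change of A318 minus A323 at 1000 CH for every tested member of 16 gene lists, 1 point a gene, coloured where the edgeR adjusted p was under 0.05, with a black bar for the median of the list and a dotted line for the median of all genes, 0.08. The coloured points are CAL, HSP70T-2, 2 oxidoreductases, BGAL7, HAI2, H2AX and SE; points beyond 4 belong to genes with few counts.

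Cold and heat protection genes gave 1 call, HSP70T-2, which is 6.67% of the heat shock list, against 0.452% of all genes lower. Of 11 cold protection genes 0 passed, with a median of 0.56, or 0.14 with genes at 0 in one group set at their bound. COR47, a dehydrin that protects cells from dehydration, measured 2371 to 5915 CPM in A318 and 6005 to 12056 CPM in A323 (log2 fold change -0.77, edgeR adjusted p 0.156), without overlap. CAP160 measured 499, 317, 301 and 48.9 CPM in A318 and 148, 145, 63.3 and 135 CPM in A323 (1.23, adjusted p 0.126), with A318 replicate 4 the lowest again. Of 15 heat shock genes, 10 had a negative log2 fold change and the median was -0.36. Above 0 were 33.3% of them, against 55.3% of all genes. HSP101, a chaperone that dissolves protein aggregates, measured 61.7, 37.6, 68.1 and 24.4 CPM in A318 and 122, 90.9, 45.1 and 114 CPM in A323 (-0.99, adjusted p 0.141).

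Cell wall genes had a higher median, 1.23, with 16 of 19 above 0 (84.2%, against 55.3% of all genes) and 0 past the test; without A318 replicate 4 the median was 0.69. Both copies of XTH2, xyloglucan endotransglucosylases that loosen walls, did not overlap, which is 10.5% of the list, against 3.3% of all genes in this direction. Prupe.8G200900 measured 89.7, 40.8, 58.8 and 31.2 CPM in A318 and 15.9, 24.5, 11.8 and 5.96 CPM in A323 (1.85, edgeR adjusted p 0.196), and Prupe.8G201000 52.3, 19.6, 30.96 and 29.9 CPM in A318 and 9.13, 13.05, 7.59 and 2.71 CPM in A323 (1.94, adjusted p 0.171). The 2 copies are neighbours by their identifiers, and how reads were shared between them is uncertain. Of 19 oxidoreductases and peroxidases, 2 (10.5%, against 0.554% of all genes) were higher in A318. A log2 fold change above 0 was seen in 15 (78.9%, against 55.3%), with a median of 0.86. Without A318 replicate 4 that median was 0.32, beside -0.04 over all genes. Of 13 sugar genes 1 (7.69%, against 0.554% of all genes) was higher, BGAL7. Their median was 0.35, or -0.07 without A318 replicate 4. BGAL1 (Prupe.7G210000), at 108, 39.2, 53.9 and 46.4 CPM against 15.2, 32.02, 28.9 and 13.01 CPM, had 1.41 (adjusted p 0.105).

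Hormone genes gave 1 call, where over all genes 0.554% were higher and 0.452% lower. Of 7 abscisic acid genes 1 was lower, HAI2, and 0 higher. HAB1, another protein phosphatase 2C of this pathway, had -0.55 (edgeR adjusted p 0.186) and NCED1 (CCD1), named for abscisic acid synthesis, -0.22 (adjusted p 0.624). The median of the 7, 1.497, was 0.00 without A318 replicate 4. Of 13 gibberellin genes 0 passed, with a median of 0.28, or 0.11 without A318 replicate 4. A GASA gene (Prupe.3G161500), of a family induced by gibberellin in Arabidopsis, measured 110, 138, 135 and 134 CPM in A318 and 65.3, 75.1, 82.1 and 74.2 CPM in A323, without overlap (0.81, adjusted p 0.164). Of 24 cell division genes, 1 (4.17%, against 0.554% of all genes) was higher, H2AX, and the median was 0.19. Of 9 phenylpropanoid genes 0 passed, with a median of -0.01, and of 7 chromatin genes 1 (14.3%, against 0.452% of all genes) was lower, SE, with a median of -0.12.

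A longer list came from the low chill genotypes. At 600 CH, A209 and A340 differed from A318 and A323 in 3071 DEGs, 2219 higher (9.83% of genes) and 852 lower (3.77%) in low chill. None of these libraries is from 1000 CH, but they were part of the same fit. Of the 2219 genes, 48 (2.16%) were higher and 2 (0.0901%) lower in A318 at 1000 CH, beside 0.554% and 0.452% of all genes. Their median log2 fold change was 0.85 (0.82 with genes that had no count in one genotype set at their bound), and 83.9% were above 0, beside 0.08 and 55.3% over all genes. Without A318 replicate 4, 16 were higher and 0 lower, with a median of 0.49 beside -0.04 over all genes. With replicate 4 as the only A318 library the median was 0.91, and with the 8 libraries thinned to the smallest total it was 0.41 over the 469 of these genes that could be tested. These genes took 6.03%, 4.33%, 5.09% and 6.23% of the counts of the A318 libraries and 3.68%, 3.79%, 4.20% and 3.57% of those of A323, without overlap. Over the 651 of them with a mean above 10 CPM, the median log2 deviation of each library from the mean of the 8 was 0.37, 0.03, 0.22 and 0.26 in A318 and -0.03, -0.19, -0.10 and -0.49 in A323, so that A318 replicate 2 was near A323 replicate 1. The part of depth in this difference was not tested. At 600 CH, the libraries from which the list was drawn, 42 of its genes were higher and 4 lower in A318. Over all 22574 genes, 95 and 24 were. At Pre-bloom 196 and 63 were, beside 1041 and 434 of all genes. The list's medians were 0.38, 0.16, 0.33 and 0.04 at 0 CH, 100 CH, 600 CH and Pre-bloom. Those of all genes were 0.02, 0.01, -0.02 and -0.02.

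Of the 852 genes lower in low chill at 600 CH, 18 (2.11%) were lower and 1 (0.117%) higher in A318 at 1000 CH, with a median of -0.08. A module of 422 genes that the study had drawn from apricot ecodormancy gave 291 tested genes. Of these, 1 (0.344%, against 0.554% of all genes) was higher and 0 lower. Its median was 0.61, with 72.5% above 0, and 0.05 without A318 replicate 4.

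The A318 and A323 difference was also measured at the other 4 times, in other libraries, which share the estimate of spread and the normalization with those of 1000 CH because all peach libraries were fitted together. Pre-bloom buds were collected by stage, on an earlier day in A318 than in A323, whereas both genotypes shared the day at 1000 CH. The part of the sampling day in the Pre-bloom differences was not tested. The test against no change called 9 (0.0399%), 29 (0.128%), 119 (0.527%) and 1475 (6.53%) genes at 0 CH, 100 CH, 600 CH and Pre-bloom, and the 2-fold test 3 (0.0133%), 17 (0.0753%), 23 (0.102%) and 472 (2.09%). Without the A323 library at 0 CH that went against its label, the 2-fold test called 34 genes at 0 CH, 27 higher and 7 lower, so these counts give no order over time. Of the 227 genes at 1000 CH, 44 were called in the same direction at one or more of those times, 1 at all 4 and 183 at none. The shares of all genes called at each time, in either direction, are those given above. The 125 higher genes had positive log2 fold changes in 101, 62, 100 and 96 cases at 0 CH, 100 CH, 600 CH and Pre-bloom, with medians of 0.51, -0.04, 0.52 and 0.65. Of all genes, 51.7%, 51.7%, 47.7% and 48.3% were above 0 at these times. The 102 lower genes had negative values in 78, 59, 87 and 51 cases, with medians of -0.24, -0.03, -0.36 and -0.0016. At Pre-bloom, 11 of them were called in the opposite direction, HSP70T-2 and Prupe.8G195800 among them. Of all 22574 genes, 1041 were called higher in A318 there.

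Within genotypes, the 2-fold test from 600 to 1000 CH called 2234 genes (9.9%) in A318, 1990 higher and 244 lower, and 618 (2.74%) in A323, 439 higher and 179 lower. These contrasts share libraries with the comparison at 1000 CH and are set side by side only. A direct test of whether the genotype difference changed between 600 and 1000 CH called 1 gene (0.00443%), Prupe.4G109600 (chromosome 4, without a description), by edgeR, with 2159 genes at an unadjusted p under 0.05, and DESeq2 called 9. At 600 CH it measured 0.295, 0, 0.159 and 0.045 CPM in A318 and 7.11, 12.6 and 10.97 CPM in A323. At 1000 CH it measured 7.47, 0.817, 2.48 and 2.48 CPM in A318 and 11.7, 7.91, 9.86 and 4.88 CPM in A323. Of these, A318 replicate 2 was below its 3-count floor of 2.45 CPM. Replicates 1 and 3 of A318 were near theirs, 5.61 and 1.86 CPM. The A318 levels at 600 CH were all below their floors of 0.136 to 0.477 CPM. The difference between the genotypes was -6.89 at 600 CH and -1.73 at 1000 CH on the log2 scale, a change of 5.16 (SE 0.94, adjusted p 0.0192). The gene is 1 of the 9 lower genes used above to check the labels, in which the A318 libraries at 1000 CH stood above those of the other times.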

How the data were processed

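RNA from peach floral buds was sequenced by the authors as paired reads with a TruSeq kit, trimmed with skewer, cleared of rRNA reads and aligned with STAR (2.5.3a in the submitters' processing notes) to Prunus persica v2.0. The authors deposited 1 table of raw counts per library, made with HTSeq-count over exons for 26872 genes, in which 6 gene models of the older v1.0 annotation stand in for the DAM region. The HTSeq version, its strand setting and the handling of reads shared by gene copies are not given in the sources used here. The paper reports rRNA carry-over in most of the peach libraries, and these reads were removed before counting. In its multivariate analysis of variance the rRNA share was a significant factor, without a significant interaction with genotype or time. The part of rRNA in the depth and the differences described here was not tested.

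The counts of all 69 peach libraries were fitted together in edgeR 4.0.16 (R 4.3.3) in 18 groups by genotype and time, after filterByExpr (minimum count 10) and TMM scaling. The study itself used DESeq2 Wald tests with a cut on fold change and adjusted p. Here DEGs were called with glmTreat against a 2-fold change, which is stricter than a 2-fold cut after the test, and single genes with glmQLFTest against no change, adjusted by Benjamini-Hochberg over 22574 genes. DESeq2 1.42.0, other normalization, filtering, samples, thinning and the omission of each replicate were alternatives. Normalized CPM are counts relative to the TMM-scaled library total. The models were tested on simulated data. Replicate pairs of a group differed by more than counting noise. Clonal trees of 1 genotype are the replicates.

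The 8 libraries, the gene lists and the alternatives were chosen with earlier results of these data known. The rule for named genes was the DAM genes, up to 8 list members past the test per list, and, among genes whose libraries do not overlap, the 5 largest and the 12 largest annotated in each direction. As 0 genes passed the 2-fold test, it was applied to genes past the test against no change, a choice made after their values were seen. Names and descriptions come from the study; other genes are given by identifier.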

Additional observations from a re-analysis of the deposited data

Results flagged for a closer look

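Of 86 groups of 4 libraries checked for a value far from the other 3, 7 had one, where chance gives about 1 in 20. Total counts in A318 replicate 4 were 8316974, against 529219 to 1509999 in the other 3 A318 libraries. At equal depth the same library showed 20937 genes against 17139 to 17583. Prupe.7G200200 (GER3) measured 10.5 CPM in A318 replicate 3 and 0.817 to 1.87 CPM in the other 3. Prupe.6G316000 (GATA16) measured 5.61 CPM in A318 replicate 1, the shallowest library, and 1.86 to 2.45 CPM in the others. The level of 5.61 CPM is the 3-count floor of that library. In A323, Prupe.2G160800 was at 0.395 CPM in replicate 2, Prupe.1G512100 at 0.194 CPM in replicate 1 and Prupe.2G112900 at 0.389 CPM in replicate 1, each with 0 in the other 3 libraries and so resting on 1 or 2 counts.

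The difference between A318 and A323 changed between 600 and 1000 CH for Prupe.4G109600, by 5.16 on the log2 scale (edgeR adjusted p 0.0192), from -6.89 to -1.73. In all 4 A318 libraries of 1000 CH, at 0.817 to 7.47 CPM, it was above the 4 of 600 CH, at 0 to 0.295 CPM. The 0.817 CPM of replicate 2 was below its 3-count floor of 2.45 CPM, so a rise in that library is not resolved. The 7.47 CPM of replicate 1 was near its floor of 5.61 CPM.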

How the results depend on the processing

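At 1000 CH, 0 genes passed the 2-fold test, also with DESeq2, DESeq2 size factors or no filter. With 1 library left out it called 0 to 1, and the test against no change 27 to 249 genes in place of 227. Requiring 2-fold after the test against no change gave 174 (121 higher, 53 lower). The 8 libraries alone gave 369 genes (324 higher, 45 lower) and 49 DEGs (49 and 0), the A318 and A323 libraries alone 111 (64 and 47), omitting the shallow peach libraries 10 (3 and 7), A318 replicate 4 as the only A318 library 32 (14 and 18), thinning 33 DEGs (32 and 1) and the DESeq2 Wald test 583 (437 and 146). Omitting the A323 library at 0 CH that went against its label, an alternative chosen after seeing the data like that of A318 replicate 4 alone, gave 2 DEGs, 34 at 0 CH and 2 genes in the test of change between times. At 0 CH the DEGs were 1 with DESeq2, with its size factors and without shallow libraries. DESeq2 called 11 at 100 CH, 296 at Pre-bloom, 823 and 345 within A318 and A323, and 9 in the test of change, which called 0 without shallow libraries. Without shallow libraries the log2 fold changes of DAM5 and DAM6 were -0.65 and -0.87, and with A318 replicate 4 alone -0.85 and -1.23. Both settings leave replicate 4 as the only A318 library at 1000 CH. The log2 fold change of DAM1 ranged from -0.0071 to 0.88 with 1 library left out. The causes were not tested. With the replicate number as a block, the 8 libraries gave 469 genes (401 and 68) and 72 DEGs (70 and 2). Deviations of same-numbered libraries correlated at 0.113, -0.0619, -0.0766 and 0.104, so the numbers were not taken to pair the samples, and not every library correlated best with its own number. Depth limits the 6113 genes with under 10 counts on average.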
